A study of Mus musculus with 6 samples.

Results

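Lysosomal gene expression was examined in the macrophages of PKM2ΔMAC and PKM2FL/FL mice. A set of 44 genes was taken by symbol from a list of lysosomal hydrolases, their cofactors, lysosomal membrane proteins, subunits of the vacuolar proton pump (V-ATPase) and the transcription factors Tfeb and Tfe3. All 44 symbols were found among the 23935 symbols of the deposited tables. The comparison asked whether other lysosomal genes were expressed at a higher level where lysozyme 2 (Lyz2), an abundant lysosomal and secreted enzyme of macrophages, was lost.

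The samples were bone marrow-derived macrophages (BMDMs), obtained by culturing bone marrow with the growth factor M-CSF for 7 days. Priming with LPS, at 10 ng/mL, and with IFN-γ, at 25 ng/mL, followed for 16 h. Both genotypes carried the floxed Pkm allele (PKM2FL/FL), and PKM2ΔMAC mice carried LysM-Cre in addition. LysM-Cre is a Cre gene placed in the Lyz2 locus, so Cre is made in myeloid cells and the Lyz2 gene itself is disrupted by the insertion. There were 3 mice of each genotype, described as littermates in the methods, with 1 library for each mouse. Every culture was primed and no PKM2FL/FL mouse carried Cre, so that loss of PKM2, Cre and loss of Lyz2 cannot be told apart, and the age of these mice is not given in the sources used here.

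The lysosome is the acidic compartment in which macrophages digest engulfed microbes, dying cells and their own worn-out material. Its hydrolases work at low pH, which the V-ATPase sets by pumping protons across a membrane lined with heavily glycosylated proteins such as LAMP1 and LAMP2. Many of its genes carry an E-box known as the CLEAR element in their promoter, to which TFEB and TFE3 bind when lysosomal capacity is adjusted.

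Depth was similar in all libraries, with total counts from 49957449 to 54524651 and no fewer than 509 counts for any lysosomal gene in any library. The macrophage markers Adgre1, Csf1r, Cd14, Fcgr1, Cd68 and Itgam were detected in every library. Itgam was called higher in PKM2ΔMAC (log2 fold change 0.43, SE 0.04, edgeR adjusted p = 0.00272), and Adgre1 was higher without overlap (0.26, SE 0.07, edgeR adjusted p = 0.236). The summed level of 10 macrophage markers was between 8137 and 8437 TPM (transcript counts scaled for gene length and library size) in PKM2FL/FL and between 8575 and 9464 TPM in PKM2ΔMAC. Of that sum, Adgre1 alone averaged 1825.5 TPM in PKM2FL/FL and 2301 TPM in PKM2ΔMAC. In the fit on counts, 6 of the 10 markers were below 0 and 4 above, with a median log2 fold change of -0.02. Lyz2 took 4.74% of TPM in PKM2FL/FL and 0.00794% in PKM2ΔMAC, which affects sums on that scale. Pkm, the targeted gene, was at 1189, 1205 and 1189 TPM in PKM2FL/FL mice 1 to 3 and at 716, 925 and 724 TPM in PKM2ΔMAC mice 1 to 3 (log2 fold change -0.68, SE 0.08, edgeR adjusted p = 0.00913), though it missed the threshold when any 1 PKM2FL/FL mouse was left out (edgeR adjusted p = 0.0754 to 0.0993) and on TPM (limma adjusted p = 0.104 to 0.156). Counts are per gene and Pkm encodes both PKM1 and PKM2, so these levels do not measure PKM2 alone or the extent of its deletion. PKM2ΔMAC mouse 2 stood apart from the other PKM2ΔMAC mice. It had the highest Pkm level of the genotype, and a list of 15 cell cycle genes lay 0.89 above the PKM2FL/FL mean on the log2 scale in it (median over the list), against 0.25 and 0.21 in mice 1 and 3. The calls, overlap and median fold change of the lysosomal genes, and some single fold changes, are therefore also given without it. They follow the results on all 6 libraries.

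Lyz2 fell to near 0 in PKM2ΔMAC, while its neighbour Lyz1 rose. Lyz2 was measured at 44825, 47845 and 49590 TPM in PKM2FL/FL mice and at 87.6, 70.4 and 80.0 TPM in PKM2ΔMAC mice (log2 fold change -9.29, SE 0.13, edgeR adjusted p = 8.53e-09). Lyz1, which encodes the other mouse lysozyme of very similar sequence, rose from 27.9, 34.8 and 39.8 TPM to 390, 354 and 295 TPM (log2 fold change 3.27, SE 0.16, edgeR adjusted p = 0.0016). On GRCm38 the genes are minus-strand neighbours, with Lyz2 at chr10:117277331-117282321 and Lyz1 at chr10:117287797-117292868, and reads shared by both could not be reassigned from the count table. Summed over both genes, lysozyme RNA was between 44853 and 49630 TPM in PKM2FL/FL and between 375 and 477 TPM in PKM2ΔMAC. The rise of Lyz1 therefore left the sum far below its level in PKM2FL/FL.

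**Figure D1:**
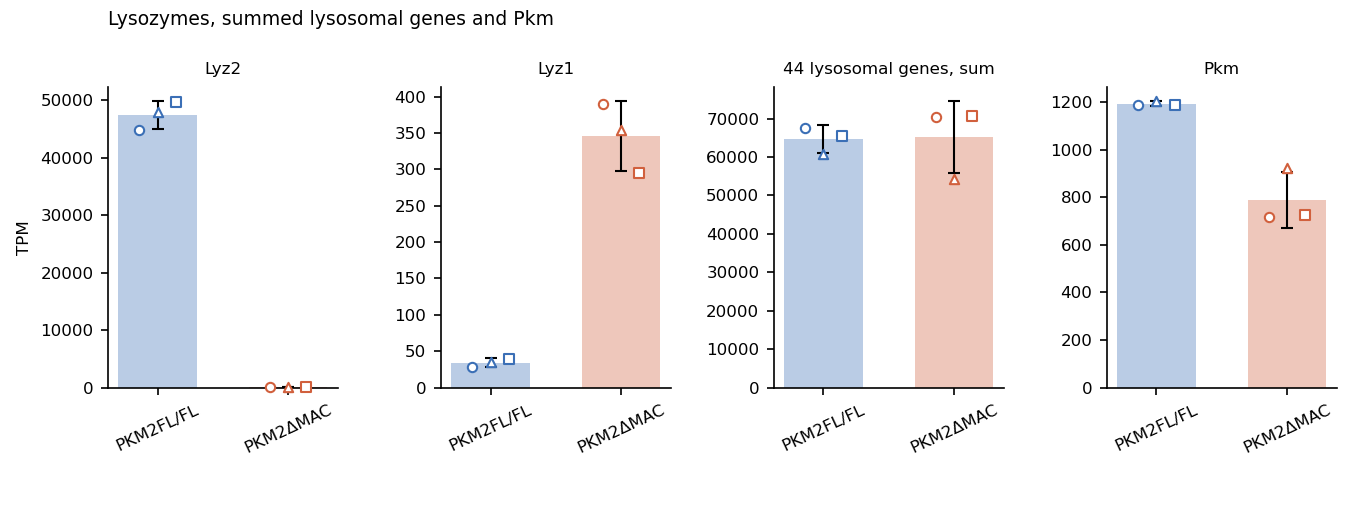
Levels in TPM (vertical axes, each starting at 0) of Lyz2, Lyz1, the 44 lysosomal genes summed and Pkm in PKM2FL/FL and PKM2ΔMAC mice. Each point is 1 library and the bars are means with SD over 3 mice. Lyz2 is near 0 in PKM2ΔMAC, whereas the summed lysosomal genes of the genotypes overlap (60699 to 67644 TPM against 54407 to 70739 TPM).

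None of the 44 lysosomal genes passed the test between genotypes (0 called at an edgeR adjusted p under 0.05, where 0.412% of the 16516 tested genes were called, 0.285% higher and 0.127% lower). Unadjusted, 3 genes had p under 0.05 in edgeR, namely Ctsf, Neu1 and Mcoln1, all lower in PKM2ΔMAC. This was 6.82% of the genes, against 9.83% of all tested genes at that threshold (5.24% higher and 4.60% lower). DESeq2 also called 0 of the 44 and gave 2 genes at an unadjusted p under 0.05, Ctsf and Neu1, where 9.07% of all tested genes were under it and 302 were called. In bulk RNA of this kind, fewer cells of a type and less RNA per cell cannot be told apart.

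The differences between genotypes were small in both directions. The median log2 fold change over the 44 genes was -0.04, against -0.0002 over all tested genes, and single genes ranged from -0.24 (Ctsf) to 0.54 (Acp5). With counts scaled by TMM, 37 genes were below 0 and 7 above, where 50.1% of all tested genes were below 0, while on deposited TPM 19 were below 0 and 25 above, with a median of 0.02 where all genes had 0.06. TPM values of a library add to a fixed sum, of which Lyz2 took 4.74% in PKM2FL/FL and 0.00794% in PKM2ΔMAC. Once each library was rescaled without Lyz1 and Lyz2, 37 genes were again below 0, with a median of -0.05.

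The precision was enough to bound a rise for most genes. The upper end of the 95% interval from edgeR stayed below a 1.5-fold higher level in PKM2ΔMAC for 40 of the 44 genes, the exceptions being Ctsk, Ctsl, Acp5 and Atp6v0d2, and below a 2-fold higher level for 42, all but Acp5 and Atp6v0d2. In the other direction, the lower end stayed above a 1.5-fold lower level for 40 genes, all but Ctsk, Gla, Acp5 and Atp6v0d2. The summed level of the 44 genes was 67644, 60699 and 65606 TPM in PKM2FL/FL (64650 ± 3570, SD, n = 3) and 70518, 54407 and 70739 TPM in PKM2ΔMAC (65222 ± 9366, SD, n = 3), which overlapped (exact two-sided permutation test, p = 1). The smallest p that 3 against 3 mice can give in that test is 0.10.

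**Figure D2:**
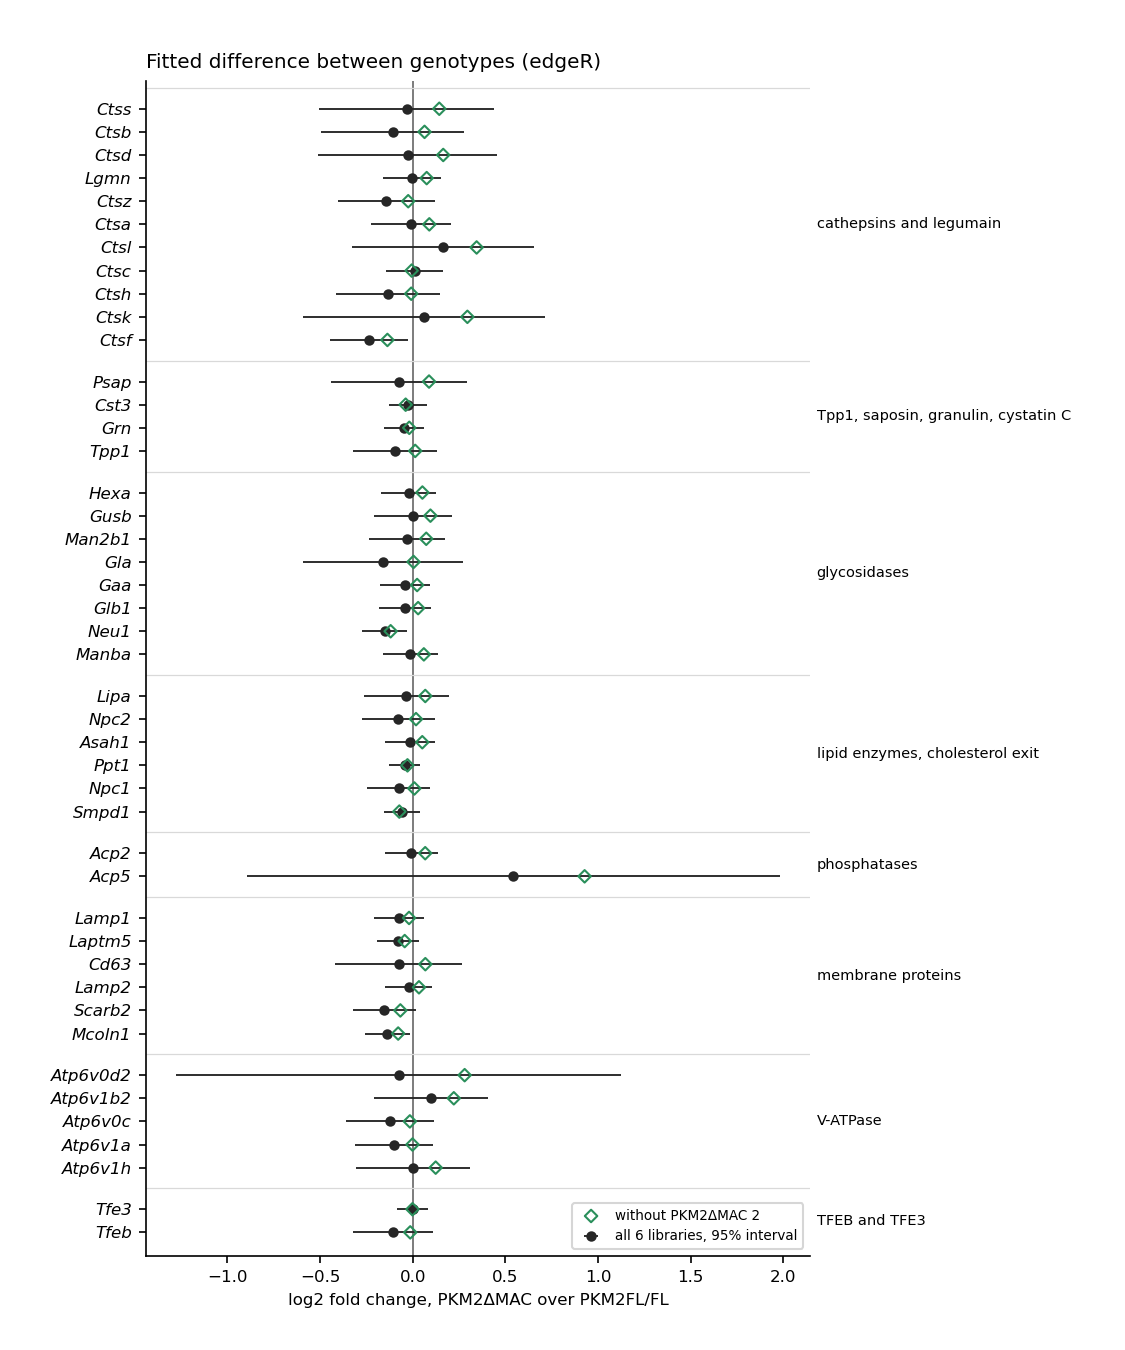
Fitted log2 fold change of each of the 44 lysosomal genes (horizontal axis, PKM2ΔMAC over PKM2FL/FL, edgeR on counts), ordered by role, with 95% intervals as bars. Points run from -0.24 (Ctsf) to 0.54 (Acp5), every interval but those of Ctsf, Neu1 and Mcoln1 includes 0, and the widest intervals belong to Acp5 (-0.89 to 1.98) and Atp6v0d2 (-1.28 to 1.12).

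As a group, these genes were highly expressed in primed BMDMs. Mean levels over all 6 libraries ran from 19.2 TPM (Ctsf) to 16384.5 TPM (Psap), with 11 genes at 1000 TPM or more, 24 between 100 and 1000 TPM and 9 below 100 TPM. Together they made up 6.07% to 6.77% of TPM in PKM2FL/FL libraries and 5.44% to 7.08% in PKM2ΔMAC libraries, the lowest share being that of PKM2ΔMAC mouse 2.

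**Figure D3:**
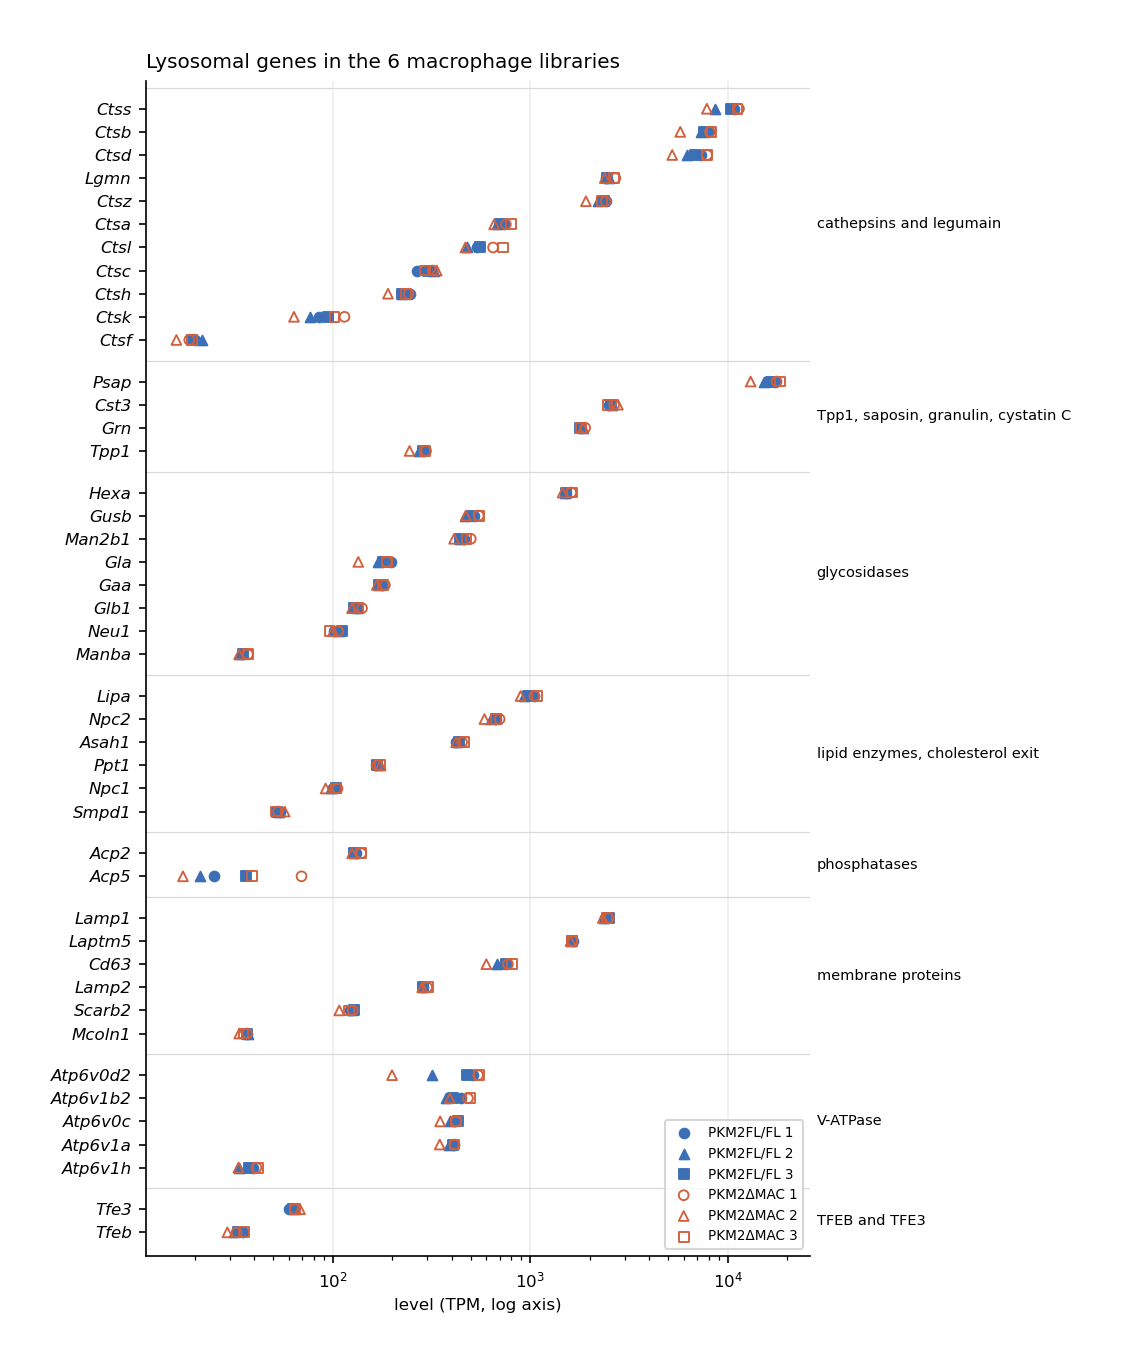
Level of each of the 44 lysosomal genes in TPM (horizontal log axis) in each of the 6 libraries, ordered by role, with colour giving the genotype. Levels run from about 19.2 TPM for Ctsf to 16384.5 TPM for Psap (means over 6 libraries), and the genotypes overlap for every gene on this scale.

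The E-box to which TFEB and TFE3 bind was searched in the promoters of the set, taken from RefSeq on GRCm38.p6 as 250 bases before to 50 bases after the gene start. The long form TCACGTGA contains the core CACGTG, and each reads the same on both strands. Promoter sequences were matched for 37 of the 44 genes. The long form was found in 5 of the 37 (13.5%), against 1.12% of the 27025 genes with a promoter of this length, and the core in 11 (29.7%), against 8.09%. The stretches shown for Ctsa, Ctsd, Gla and Mcoln1 overlap exons of the GENCODE M21 annotation, and those of Ctsa, Ctsd, Mcoln1 and Atp6v1a lie inside the annotated gene. The 5 genes with the long form are printed because they cover proteases, a glycosidase, the calcium channel and a pump subunit. Lamp1 is printed for its 4 core copies, and Ctsf because it had the lowest fold change of the set. Capitals mark the motif, and each sequence runs 5′ to 3′ on the strand of its gene.
Ctsa (chr2:164833749-164833772, plus strand): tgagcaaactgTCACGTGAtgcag
Ctsd (chr7:142387908-142387937, minus strand): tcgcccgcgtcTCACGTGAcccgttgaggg
Gla (chrX:134601182-134601211, minus strand): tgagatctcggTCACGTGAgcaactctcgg
Mcoln1 (chr8:3500462-3500491, plus strand): aggcgccccgcTCACGTGAccgcggcgcat
Atp6v1a (chr16:44139373-44139402, minus strand): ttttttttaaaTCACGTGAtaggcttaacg
Lamp1 (chr8:13159088-13159160, plus strand): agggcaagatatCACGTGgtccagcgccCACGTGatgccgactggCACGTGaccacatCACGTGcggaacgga
Ctsf (chr19:4855074-4855103, plus strand): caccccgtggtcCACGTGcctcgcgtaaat
The core without the long form was also found in Ctsl, Lgmn, Gaa and Glb1. The genes with the long form had log2 fold changes of -0.01 (Ctsa), -0.03 (Ctsd), -0.16 (Gla), -0.14 (Mcoln1) and -0.10 (Atp6v1a), and none was called by edgeR. A match describes the letters of the window and does not show binding by any factor. Since this element is known from lysosomal promoters, a higher share than over all genes was foreseen, and no test was run.

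The transcription factors themselves were at modest levels. Tfeb was at 34.95, 31.5 and 33.3 TPM in PKM2FL/FL and at 32.6, 29.3 and 35.5 TPM in PKM2ΔMAC, and the genotypes overlapped (log2 fold change -0.11, SE 0.09, edgeR adjusted p = 0.778). Tfe3 was at 60.3, 64.3 and 62.7 TPM and at 64.3, 68.2 and 64.5 TPM (log2 fold change -0.0004, SE 0.04, edgeR adjusted p = 0.999), the smallest difference of the set. RNA levels do not report where these factors were in the cell, which is how their activity is mainly set.

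Of the cathepsins, the proteases that do most of the protein digestion in the lysosome, 0 of 11 were called and the median log2 fold change was -0.03. Mean levels over 6 libraries were 10021 TPM for Ctss, which trims the invariant chain of MHC class II, 7487 TPM for Ctsb and 6886 TPM for the aspartic protease Ctsd. Legumain (Lgmn), the asparaginyl endopeptidase that processes cathepsins, was at 2523 TPM, the carboxypeptidase Ctsz at 2269 TPM, and Ctsa, a carboxypeptidase that also shields beta-galactosidase and neuraminidase, at 720.1 TPM. The remaining cathepsins were lower, with 569 TPM for Ctsl, 308 TPM for the dipeptidyl peptidase Ctsc, 227 TPM for the aminopeptidase Ctsh, 89.4 TPM for the collagen-degrading Ctsk and 19.2 TPM for Ctsf. Levels are per length and can be compared between genes.

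Ctss, the highest cathepsin, was at 10751, 8611 and 10340 TPM in PKM2FL/FL and at 11391, 7835 and 11198 TPM in PKM2ΔMAC (log2 fold change -0.03, SE 0.19, edgeR adjusted p = 0.976). PKM2ΔMAC mice 1 and 3 were above every PKM2FL/FL mouse and mouse 2 below all. Ctsf, a cysteine protease of the papain family, was at 29.0, 30.9 and 28.0 CPM (counts scaled by library size and TMM factor) in PKM2FL/FL and at 26.0, 21.3 and 27.2 CPM in PKM2ΔMAC (log2 fold change -0.24, SE 0.09, edgeR adjusted p = 0.451). Its genotypes did not overlap on the CPM scale, with the lowest PKM2FL/FL mouse just above the highest PKM2ΔMAC mouse.

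Of the other protein-processing genes and cofactors, 0 of 4 were called, with a median log2 fold change of -0.06. Psap, the precursor of the saposins that present sphingolipids to their hydrolases, was the most abundant gene of the set at 17372, 15217 and 16642.5 TPM in PKM2FL/FL and 17672, 13057 and 18347 TPM in PKM2ΔMAC (log2 fold change -0.07, SE 0.15, edgeR adjusted p = 0.926). The genotypes overlapped, with PKM2ΔMAC mouse 2 the lowest library. Cst3, a secreted inhibitor of cysteine cathepsins, averaged 2591 TPM over 6 libraries, Grn, the precursor of the granulins, 1836 TPM, and the tripeptidyl peptidase Tpp1 281 TPM.

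The glycosidases, which strip sugars from glycoproteins, glycolipids and glycogen, gave 0 of 8 called and a median log2 fold change of -0.03. Hexa, the alpha subunit of beta-hexosaminidase, was the highest at 1517, 1496 and 1518 TPM in PKM2FL/FL and 1612, 1457 and 1621 TPM in PKM2ΔMAC (log2 fold change -0.02, SE 0.06, edgeR adjusted p = 0.951), with overlap. It was followed by the beta-glucuronidase Gusb (510 TPM over 6 libraries), the alpha-mannosidase Man2b1 (456 TPM), the alpha-galactosidase Gla (176 TPM), the glycogen-degrading alpha-glucosidase Gaa (175 TPM), the beta-galactosidase Glb1 (132 TPM), Neu1 (104 TPM) and the beta-mannosidase Manba (35.2 TPM). Neu1, the sialidase that removes terminal sialic acid, was the only one whose genotypes did not overlap, at 110, 113 and 119 CPM in PKM2FL/FL and 109, 97.8 and 99.8 CPM in PKM2ΔMAC (log2 fold change -0.15, SE 0.05, edgeR adjusted p = 0.408). This was the lowest adjusted p of the 44 genes, and mouse 1 of the PKM2ΔMAC group lay close to the PKM2FL/FL values.

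Among the enzymes and carriers of lipid breakdown, 0 of 6 were called, with a median log2 fold change of -0.05. Lipa, the acid lipase that frees cholesterol from its esters, was at 1046, 927 and 973 TPM in PKM2FL/FL and 1048, 893 and 1077 TPM in PKM2ΔMAC (log2 fold change -0.03, SE 0.10, edgeR adjusted p = 0.944). The cholesterol carriers Npc2 and Npc1, which hand cholesterol out of the lysosome in turn, averaged 654 and 101 TPM over 6 libraries, the ceramidase Asah1 437 TPM and the thioesterase Ppt1 169.9 TPM. Smpd1, the acid sphingomyelinase, was at 52.01, 50.01 and 50.1 CPM and at 48.5, 49.7 and 47.8 CPM, without overlap but with a small difference (log2 fold change -0.06, SE 0.04, edgeR adjusted p = 0.723).

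The membrane proteins gave 0 of 6 called and held 3 of the genes without overlap between genotypes, all lower in PKM2ΔMAC (8.55% of all tested genes). Lamp1, the major glycoprotein of the lysosomal membrane, was at 2393, 2370 and 2509 TPM in PKM2FL/FL and 2496, 2329 and 2440 TPM in PKM2ΔMAC (log2 fold change -0.07, SE 0.06, edgeR adjusted p = 0.757), with overlap. Lamp2, its partner in autophagy, averaged 291 TPM over 6 libraries and the tetraspanin Cd63 728 TPM. Laptm5, a membrane protein of blood cell lysosomes, was at 1803, 1712 and 1767 CPM against 1707, 1583 and 1708 CPM (log2 fold change -0.08, SE 0.05, edgeR adjusted p = 0.659). The lowest PKM2FL/FL value was thus only just above the highest PKM2ΔMAC value. Scarb2, which carries beta-glucocerebrosidase to the lysosome, was at 222, 221 and 231 CPM against 218, 177 and 211 CPM (log2 fold change -0.15, SE 0.07, edgeR adjusted p = 0.546). Mcoln1, the channel that lets calcium out of the lysosome, was at 80.0, 79.2 and 79.4 CPM against 76.5, 66.3 and 74.0 CPM (log2 fold change -0.14, SE 0.05, edgeR adjusted p = 0.456). The PKM2FL/FL mice lay close together for Mcoln1 and all PKM2ΔMAC mice below them.

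In all, 6 of the 44 genes showed no overlap between genotypes on the TMM-scaled CPM scale, and each was lower in PKM2ΔMAC (13.6%, where 8.55% of all tested genes were lower and 8.77% higher without overlap, 17.3% in all). They were Ctsf, Neu1, Smpd1, Scarb2, Laptm5 and Mcoln1, and none was called by edgeR. Overlap of Neu1, Laptm5 and Smpd1 depended on the scaling, since 5 genes remained with RLE factors (without Neu1), 4 with upper-quartile factors (without Neu1 and Laptm5) and 4 on TPM rescaled without Lyz1 and Lyz2 (without Neu1 and Smpd1). On deposited TPM 0 of the 44 were without overlap, where 23.0% of the 14582 genes with a mean of at least 1 TPM were (19.9% higher and 3.09% lower in PKM2ΔMAC). On GRCm38 the 6 genes lie on different chromosomes, with Ctsf at chr19:4855130-4860918, Neu1 at chr17:34931253-34935953, Smpd1 at chr7:105554360-105558389, Scarb2 at chr5:92441314-92506833, Laptm5 at chr4:130913125-130936141 and Mcoln1 at chr8:3500457-3515232, all annotated as protein-coding genes in GENCODE M21.

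The V-ATPase subunits gave 0 of 5 called. The V1 subunits Atp6v1a and Atp6v1b2, which form the ATP-splitting head, averaged 396 and 433 TPM over 6 libraries, Atp6v1h, a regulatory V1 subunit, 37.8 TPM, and Atp6v0c, the proton-carrying ring, 405 TPM. Atp6v0c has processed pseudogenes, so its counts may be split between copies. Atp6v0d2, an isoform of the V0 stalk subunit known from osteoclasts and macrophages, was the most variable of them at 512, 318 and 477 TPM in PKM2FL/FL and 544, 199 and 550 TPM in PKM2ΔMAC (log2 fold change -0.08, SE 0.47, edgeR adjusted p = 0.978). PKM2FL/FL mouse 2 and PKM2ΔMAC mouse 2 were the low libraries of their genotypes.

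Of the phosphatases, 0 of 2 were called. Acp2, the lysosomal acid phosphatase, averaged 132 TPM over 6 libraries (log2 fold change -0.007, SE 0.06, edgeR adjusted p = 0.984). Acp5, the tartrate-resistant acid phosphatase used as a marker of osteoclasts, had the highest fold change of the set (0.54, SE 0.56, edgeR adjusted p = 0.821). It was at 25.0, 21.2 and 36.5 TPM in PKM2FL/FL and at 69.4, 17.4 and 39.0 TPM in PKM2ΔMAC, so its PKM2ΔMAC mice held both the highest and the lowest library.

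PKM2ΔMAC mouse 2 was the lowest of all 6 libraries for 40 of the 44 genes, while it was the lowest for 24.5% of all tested genes. The exceptions were Ctsc, Cst3, Smpd1 and Tfe3. Relative to the PKM2FL/FL mean, the median of the 44 genes on the log2 scale was 0.04, -0.06 and 0.02 in PKM2FL/FL mice 1 to 3 and 0.03, -0.26 and 0.03 in PKM2ΔMAC mice 1 to 3. By role, the median in mouse 2 of PKM2ΔMAC was -0.46 for the 2 phosphatases, -0.41 for the cathepsins and -0.33 for the V-ATPase subunits. It was -0.22 for the other protein-processing genes and cofactors, -0.22 for the membrane proteins and -0.21 for the lipid genes. For the glycosidases it was -0.20 and for the 2 transcription factors -0.16. Against the mean of PKM2ΔMAC mice 1 and 3, mouse 2 ranged from -1.65 (Acp5) and -1.54 (Atp6v0d2) to 0.05 (Ctsc). The coefficient of variation of TPM was larger in PKM2ΔMAC than in PKM2FL/FL for 42 of the 44 genes, where this held for 65.5% of all tested genes, with a median of 9.32% against 3.61%. Over PKM2ΔMAC mice 1 and 3 alone it was larger for 12 genes, with a median of 1.93%, where 42.9% of all tested genes had the larger value.

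**Figure D4:**
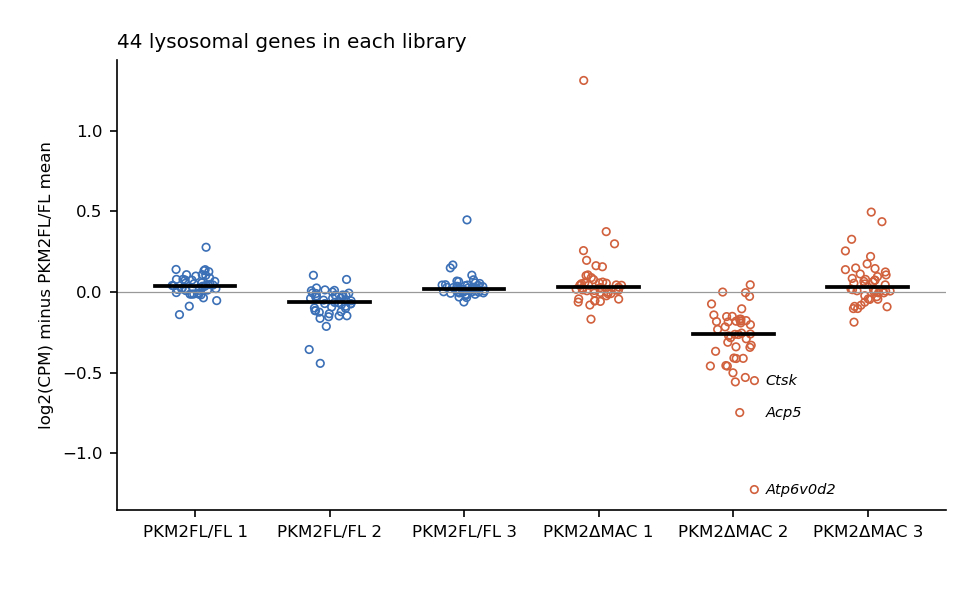
Distribution over the 44 lysosomal genes of log2(CPM) minus the PKM2FL/FL mean (vertical axis) in each of the 6 libraries (horizontal axis). Medians are 0.04, -0.06 and 0.02 in PKM2FL/FL mice 1 to 3 and 0.03, -0.26 and 0.03 in PKM2ΔMAC mice 1 to 3, so that PKM2ΔMAC mouse 2 sits below the other 5 libraries.

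Without PKM2ΔMAC mouse 2, the median of the set changed sign but stayed near 0, and still 0 of the 44 genes were called by edgeR (1.77% of 16913 tested genes were). The median log2 fold change was then 0.03, with 27 genes above 0. Over all 6 libraries, the spread of the set's median between libraries of a genotype was 0.12 on the log2 scale. Ctsl (0.35, SE 0.09, edgeR adjusted p = 0.189), Ctsk (0.30, SE 0.09, edgeR adjusted p = 0.199), Atp6v1b2 (0.22, SE 0.07, edgeR adjusted p = 0.259) and Ctsd (0.17, SE 0.07, edgeR adjusted p = 0.370) were higher with an unadjusted p under 0.05, where 6.69% of all tested genes were, and Neu1 was lower (-0.12, SE 0.05, edgeR adjusted p = 0.339), where 6.57% were. Over both directions, 13.3% of all tested genes had an unadjusted p under 0.05. Genotypes then did not overlap for 18 genes, 14 of them higher in PKM2ΔMAC, where 15.9% of all tested genes were, and 4 lower, where 15.1% were. With 2 mice left in the genotype, 31.0% of all tested genes did not overlap. The lower genes were Ctsf, Smpd1, Scarb2 and Mcoln1. Their log2 fold changes without it were -0.14, -0.07, -0.07 and -0.08, and those of Laptm5, Lamp1 and Tfeb were -0.04, -0.02 and -0.01. The upper end of the 95% interval was then below a 1.5-fold higher level for 42 genes, all but Acp5 and Atp6v0d2, and the lower end above a 1.5-fold lower level for all 44.

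The genes with the highest coefficients of variation between PKM2ΔMAC mice, Acp5, Atp6v0d2 and Ctsk, are also high in osteoclasts, the bone-resorbing relatives of macrophages. Coefficients of variation in PKM2ΔMAC were 62.3% for Acp5, 46.5% for Atp6v0d2 and 28.5% for Ctsk, against 28.9%, 23.7% and 9.99% in PKM2FL/FL. Ctsk was at 85.3, 77.0 and 94.1 TPM in PKM2FL/FL and at 115, 63.6 and 102 TPM in PKM2ΔMAC. All 3 genes were thus lowest in PKM2ΔMAC mouse 2. Of 10 osteoclast markers, 8 were tested, with 3 higher and 2 lower without overlap in PKM2ΔMAC (8.77% and 8.55% of all tested genes), and 1, Tnfrsf11a, was called, as were 0.412% of all tested genes (log2 fold change 0.27, SE 0.04, edgeR adjusted p = 0.0324). The cell fusion genes Dcstamp (1.64, edgeR adjusted p = 0.0627) and Ocstamp (1.62, edgeR adjusted p = 0.190) were higher without overlap, and the integrin gene Itgb3 (-0.75, edgeR adjusted p = 0.451) and Nfatc1 (-0.08) were lower without overlap. Mmp9 was at 6.65, 8.45 and 11.3 TPM in PKM2FL/FL and at 27.2, 8.80 and 29.3 TPM in PKM2ΔMAC. Without PKM2ΔMAC mouse 2, edgeR called Tnfrsf11a (0.26, adjusted p = 0.0105), Dcstamp (1.75, adjusted p = 0.0120) and Mmp9 (1.64, adjusted p = 0.0468). In that fit 1.77% of all tested genes were called. Calcr, which encodes the calcitonin receptor, was at most 0.175 TPM in any library and at 0 in PKM2ΔMAC mouse 2. The list summed to between 151 and 159 TPM in PKM2FL/FL and between 149 and 179 TPM in PKM2ΔMAC, and its median was 1.10, -0.02 and 0.62 above the PKM2FL/FL mean in PKM2ΔMAC mice 1 to 3. The part of such cells in the levels of Acp5, Atp6v0d2 and Ctsk was not tested.

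Of 10 neutrophil marker genes, 6 were higher in PKM2ΔMAC without overlap (8.77% of all tested genes) and 0 were called, with 6 higher at an unadjusted p under 0.05 in edgeR (5.24% of all tested genes). Their summed level was between 72.2 and 175 TPM in PKM2FL/FL and between 333 and 676 TPM in PKM2ΔMAC, and none of them was at 0 in any library. Their part in the lysosomal genes was not tested. Of 5 stromal marker genes, 1 was higher in PKM2ΔMAC without overlap (8.77% of all tested genes) and 0 were called. They summed to between 2002 and 2286 TPM in PKM2FL/FL. In PKM2ΔMAC mice 1 to 3 the sum was 2679, 2238 and 2649 TPM. Without PKM2ΔMAC mouse 2, edgeR called Col1a1 (0.36, adjusted p = 0.0307) and Pdgfrb (0.20, adjusted p = 0.0234), where 1.77% of all tested genes were called. The part of stromal cells was not tested either.

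The wider lysosomal pathway was read from 117 further genes, of which 116 were tested and 0 were called by edgeR, with 4 higher and 13 lower at an unadjusted p under 0.05 (5.24% and 4.60% of all tested genes) and 1 called by DESeq2, which called 302 of all 16516 tested genes. The median log2 fold change was -0.06. Of these genes, 3 were higher and 21 lower in PKM2ΔMAC without overlap, where 8.77% and 8.55% of all tested genes were. Without PKM2ΔMAC mouse 2 the median was -0.006, with 17 higher and 24 lower without overlap (15.9% and 15.1% of all tested genes). Among 34 further enzymes the median was -0.05, and 1 gene, the iduronate sulfatase Ids, was higher without overlap. The 5 lower ones were the heparan sulfatase Sgsh (-0.20), the dipeptidyl peptidase Dpp7 (-0.19), the sialic acid esterase Siae (-0.15), the aspartic protease Ctse (-0.35) and the aspartylglucosaminidase Aga (-0.12).

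Among 30 further membrane and sorting genes the median log2 fold change was -0.06. Ostm1, the partner of the lysosomal chloride carrier Clcn7, was higher at 52.7, 54.8 and 56.8 TPM in PKM2ΔMAC against 45.1, 43.7 and 46.8 TPM in PKM2FL/FL (log2 fold change 0.21, SE 0.05, edgeR adjusted p = 0.221), and 6 genes were lower without overlap (8.55% of all tested genes). They included Cln3 (-0.14), the cystine exporter Ctns (-0.14), the peptide transporter Abcb9 (-0.47) and Spns1 (-0.11). Among 14 further V-ATPase genes the median was -0.04, and only Atp6v1d, of the central stalk, did not overlap (-0.15, SE 0.05, edgeR adjusted p = 0.340).

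Of 31 genes of TFEB control and autophagy, 0 were called by edgeR, and 7 were lower in PKM2ΔMAC without overlap (8.55% of all tested genes). Rragc, a GTPase that brings mTORC1 and TFEB to the lysosome, was at 259, 270.2 and 261 TPM in PKM2FL/FL and at 246, 250.3 and 246 TPM in PKM2ΔMAC (log2 fold change -0.16, SE 0.04, edgeR adjusted p = 0.178), and was the gene called by DESeq2 (adjusted p = 0.0366). Flcn, which acts on Rragc, was at 93.8, 97.02 and 94.99 TPM against 89.4, 90.2 and 89.9 TPM (log2 fold change -0.16, SE 0.04, edgeR adjusted p = 0.204). The genotypes were apart for both genes with differences of a similar size. Tfec, a macrophage relative of Tfeb, was also lower without overlap (-0.33, SE 0.12, edgeR adjusted p = 0.426), as were Fnip1, the partner of Flcn (-0.10), and the autophagy receptor Sqstm1 (-0.09). Without PKM2ΔMAC mouse 2, 3 of the 116 genes were called by edgeR (2.59%, against 1.77% of all tested genes), namely Ostm1 (0.23, adjusted p = 0.0367), Tfec (-0.46, adjusted p = 0.0331) and Mitf, another relative of Tfeb (0.20, adjusted p = 0.0464).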

How the data were processed

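For 6 libraries of primed BMDMs, the authors deposited a table of unnormalised counts and a table of TPM values, each with the same 23935 gene symbols. The submitters' processing notes name FastQC 0.12.1, Trim Galore 0.6.10, HISAT2 2.2.1, SAMtools 1.19.2, Subread 2.0.6 and the build mm10. The annotation and strand setting are not given in the sources used here. Columns were matched to samples by genotype and mouse number, and 0 were left unmatched.

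Counts were analysed with edgeR 4.0.16 (R 4.3.3). Genes were kept by filterByExpr on genotype (16516 genes), scaled by TMM (factors 0.980 to 1.04) and compared by the quasi-likelihood F-test with robust estimation, genotype being the only term, and p-values were adjusted by Benjamini-Hochberg over all tested genes and called under 0.05. The functions were tested on simulated counts. Overlap between genotypes was read on TMM-scaled CPM. Log2 levels relative to the PKM2FL/FL mean used log2(CPM + 0.1), and the exact permutation test compared the summed TPM of the 44 genes. Intervals are 95%. As alternatives, DESeq2 1.42.0, RLE factors, upper-quartile factors, no filter, at least 10 counts in every library, a replicate block, each library left out, and limma 3.58.1 (trend) on log2(TPM + 1) or log2(TPM + 0.1), which understates fold changes of low genes, were run. Rescaling TPM without Lyz1 and Lyz2, and the intervals, spreads and other lists without PKM2ΔMAC mouse 2, were added after seeing the data.

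The 44 genes and all lists were chosen with earlier results of these data known. Statistics were to be printed for genes called, genes without overlap between genotypes (of the other lists, at most the 5 with the smallest p), the most abundant gene of each role, Pkm, Lyz1 and Lyz2. Acp5, Ctsb, Ctsc, Ctsk, Ctsl, Ctsd, Atp6v1a, Atp6v1b2, Ctsa, Gla, Tfeb, Ids, Mitf, Mmp9, Col1a1 and Pdgfrb were added after their values were seen. Gene positions are from GENCODE M21 and promoters from RefSeq, both on GRCm38. With 3 mice per genotype, edgeR p-values set the difference between genotypes against the spread between these mice, with variance estimates that draw on all genes.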

Additional observations from a re-analysis of the deposited data

How the results depend on the processing

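No lysosomal gene of the 44 was called under any alternative run, and their median log2 fold change stayed between -0.10 and 0.03. The number of genes called over all genes, 68 with edgeR, was 302 with DESeq2, 120 without a filter, 41 on log2(TPM + 1), 32 on log2(TPM + 0.1), 36 on log2(TPM + 1) without a filter, 29 on TPM rescaled without Lyz1 and Lyz2, and 22 to 299 with 1 library left out, the highest without PKM2ΔMAC mouse 2. Of the other lysosomal lists, 1 of 116 tested genes was called with DESeq2 (302 of all 16516) and 0 to 3 with 1 library left out (3 without PKM2ΔMAC mouse 2, where 1.77% of all tested genes were called). Genotypes did not overlap for 6 of the 44 genes, for 5 with DESeq2 or RLE factors, 4 with upper-quartile factors, 4 on rescaled TPM, 0 on deposited TPM and for 7 to 18 with 1 library left out, the highest again without PKM2ΔMAC mouse 2. PKM2ΔMAC mouse 2 was the lowest library for 40 genes, for 34 on deposited TPM and for 37 on TPM rescaled without Lyz1 and Lyz2. Of the 44 genes, 37 were below 0 on counts and 19 on deposited TPM. Genes whose sign turned on deposited TPM included Smpd1 (0.016), Ctss (0.021), Hexa (0.048), Lipa (0.032), Ctsd (0.019) and, of the other lists, Lgals8 (0.017). They also included Acp2 (0.061, and 0.062 with a pseudocount of 0.1) and Tfe3 (0.071 and 0.072). With upper-quartile factors they included Acp2 (0.00048) and Tfe3 (0.0065). Tfe3 also turned with at least 10 counts (0.0013) and on rescaled TPM (0.0027). With 1 library left out, the log2 fold change ran from -0.048 to 0.068 for Acp2, -0.039 to 0.93 for Acp5, -0.30 to 0.28 for Atp6v0d2, -0.21 to 0.064 for Ctsb, -0.13 to 0.17 for Ctsd, -0.12 to 0.30 for Ctsk, -0.13 to 0.14 for Ctss, -0.064 to 0.053 for Hexa, -0.10 to 0.068 for Lipa, -0.18 to 0.089 for Psap and -0.019 to 0.012 for Tfe3. The range was -0.11 to -0.019 for Lamp1, -0.24 to -0.12 for Dpp7, -0.14 to -0.052 for Fnip1 and -0.23 to -0.11 for Serpinb6a. Pkm missed the threshold on TPM (adjusted p 0.104 to 0.156, limma) and without each PKM2FL/FL mouse (0.0754 to 0.0993, edgeR). The causes were not tested.

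With the mouse number as a replicate block, 82 genes and 0 of the 44 were called by edgeR, the median was -0.05, and Lyz1 had an adjusted p of 0.0504. The numbers did not pair the mice, since deviations of same-numbered mice correlated at 0.16, 0.25 and 0.04 over 13075 genes.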

Other observations

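Cytosolic and secreted inhibitors of cathepsins, and the galectins that coat damaged lysosomes, were read from a list of 8 genes, of which 7 were tested and 0 were called by edgeR, with 1 higher and 1 lower at an unadjusted p under 0.05 (5.24% and 4.60% of all tested genes). Without overlap, 1 was higher and 2 lower (8.77% and 8.55% of all tested genes). Cst7, which encodes cystatin F, an inhibitor that enters lysosomes and restrains cathepsin C, was at 4.15, 2.63 and 3.69 TPM in PKM2FL/FL and at 7.42, 5.57 and 6.11 TPM in PKM2ΔMAC (log2 fold change 0.79, SE 0.25, edgeR adjusted p = 0.355). All PKM2ΔMAC mice were above all PKM2FL/FL mice, at a level of 38 to 107 counts per library. Ctsc itself had a log2 fold change of 0.01. Serpinb6a, a cytosolic serine protease inhibitor that blocks cathepsin G, was lower in PKM2ΔMAC without overlap (-0.18, SE 0.06, edgeR adjusted p = 0.394), as was the damage sensor Lgals8 on TMM-scaled counts (-0.05, SE 0.04, edgeR adjusted p = 0.697), whose sign turned on deposited TPM.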
